A study of Mus musculus with 9 samples.

Results

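Healing of a heart infarct depends on enzymes that cut, protect and crosslink the extracellular matrix, and 52 genes for such enzymes and their inhibitors were examined here out of 19505 genes measured. They were chosen by symbol alone: the numbered Mmp, Timp, Adamts, P4ha and Plod genes together with Lox and its numbered Lox-like relatives. RNA came from the peri-infarct region, the muscle bordering the infarct, of hearts collected 4 weeks after myocardial infarction. All mice were female, 80 to 100 days old when purchased and SCID, that is without working T or B cells. The iCM-Ex group was injected with exosomes, small vesicles precipitated from stem-cell-derived cardiomyocytes, the iCM group with such cardiomyocytes themselves, and the saline group with saline as the control. The cardiomyocytes had been differentiated from induced pluripotent stem cells and kept in culture until they contracted spontaneously, and the species of those stem cells is not given in the sources used here. Each group had 3 arrays, 9 in all, each labelled as a biological replicate, and every group had undergone infarction, so no comparison with an uninjured heart was possible.

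Matrix metalloproteinases (MMPs) are zinc enzymes made as inactive precursors that, between them, cut most matrix proteins, and tissue inhibitors of metalloproteinases (TIMPs) block them by binding the active enzyme. ADAMTS proteases trim procollagens, proteoglycans such as versican and aggrecan, and microfibril proteins. Collagen prolyl 4-hydroxylases (the P4ha genes encode their catalytic subunits) make the collagen triple helix stable at body temperature, lysyl hydroxylases (Plod) modify lysines that later take part in crosslinks, and lysyl oxidases (Lox and the Lox-like enzymes) start the crosslinks between collagen or elastin chains that give a scar its stiffness.

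A run of neighbouring Mmp genes lies on mouse chromosome 9, and its promoters are shown because these neighbours carry a common sequence motif while their signals in the tissue were unlike. In the RefSeq table used (GRCm38.p6) the order of the 10 protein-coding genes is Mmp13, Mmp12, Mmp1b, Mmp3, Mmp1a, Mmp10, Mmp8, Mmp27, Mmp20 and Mmp7, with no other protein-coding gene between them. Of these, 9 were measured, and Mmp27 was not analysed here. The motif searched was TGANTCA, with N any base, as a loose form of the site bound by AP-1 (dimers of Jun and Fos proteins). Both strands were searched within 250 bases upstream of each RefSeq gene start. The motif was found in 6.75% of all 32851 promoters in the RefSeq set. Promoters were matched for 34 of the 52 genes, and the motif was found for 8 of the 34, all 8 in this run. The 120 bases upstream of the start follow for 8 of the measured neighbours, in chromosomal order of the table, 5′ to 3′ along the strand of the gene, with the AP-1 motif in capitals.
Mmp13 (chr9:7272394-7272513, plus strand): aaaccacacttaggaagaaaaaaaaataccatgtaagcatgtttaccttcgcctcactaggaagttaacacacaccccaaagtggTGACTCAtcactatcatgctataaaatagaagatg
Mmp12 (chr9:7344277-7344396, plus strand): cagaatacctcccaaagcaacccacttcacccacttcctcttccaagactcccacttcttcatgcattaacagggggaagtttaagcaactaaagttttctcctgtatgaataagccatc
Mmp1b (chr9:7388027-7388146, minus strand): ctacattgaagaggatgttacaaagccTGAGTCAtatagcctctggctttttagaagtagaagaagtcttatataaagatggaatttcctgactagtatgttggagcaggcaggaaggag
Mmp3 (chr9:7445702-7445821, plus strand): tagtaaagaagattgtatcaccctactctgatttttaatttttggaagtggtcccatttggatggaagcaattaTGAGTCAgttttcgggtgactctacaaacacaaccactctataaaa
Mmp1a (chr9:7464021-7464140, plus strand): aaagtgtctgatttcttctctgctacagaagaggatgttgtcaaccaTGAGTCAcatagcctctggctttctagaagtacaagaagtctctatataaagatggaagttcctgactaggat
Mmp10 (chr9:7502222-7502341, plus strand): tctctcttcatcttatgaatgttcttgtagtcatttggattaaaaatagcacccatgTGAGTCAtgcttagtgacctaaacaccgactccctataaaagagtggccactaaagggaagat
Mmp20 (chr9:7628111-7628230, plus strand): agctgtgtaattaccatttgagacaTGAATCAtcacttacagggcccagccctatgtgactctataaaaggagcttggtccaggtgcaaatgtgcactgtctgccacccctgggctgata
Mmp7 (chr9:7691970-7692089, plus strand): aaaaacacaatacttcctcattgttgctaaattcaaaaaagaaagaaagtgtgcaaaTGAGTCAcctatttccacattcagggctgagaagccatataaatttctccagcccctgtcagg
Mmp12 has a pair of annotated starts, and the motif is upstream of the one not printed. Mmp7 likewise has a pair, and the printed one holds the motif. Mmp8, the neighbour not printed, holds no TGANTCA in these 250 bases. The match is TGAATCA for Mmp20 and TGAGTCA or TGACTCA for the other genes. A match is a description of the letters and not evidence that the factor binds.

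Neighbours that carry the motif were both above and below background. The values throughout are the authors' log2 signals, so that a difference of 1 is a doubling of signal, and values per array are given in the order of replicates 1, 2 and 3. The median signal of the negative control probe sets, which averaged 4.86 in iCM-Ex, 5.31 in iCM and 5.29 in saline, was used as the mark of background for each group. Mmp3 and Mmp12 had means above it in all 3 groups, and Mmp8, the neutrophil collagenase, in the iCM-Ex and iCM groups. The 6 others (Mmp13, Mmp1b, Mmp1a, Mmp10, Mmp20 and Mmp7), all with the motif, were below it in every group and lay between 3.12 and 5.12 on every array. Mmp1a and Mmp1b are close paralogues whose probe sets could share signal.

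**Figure D1:**
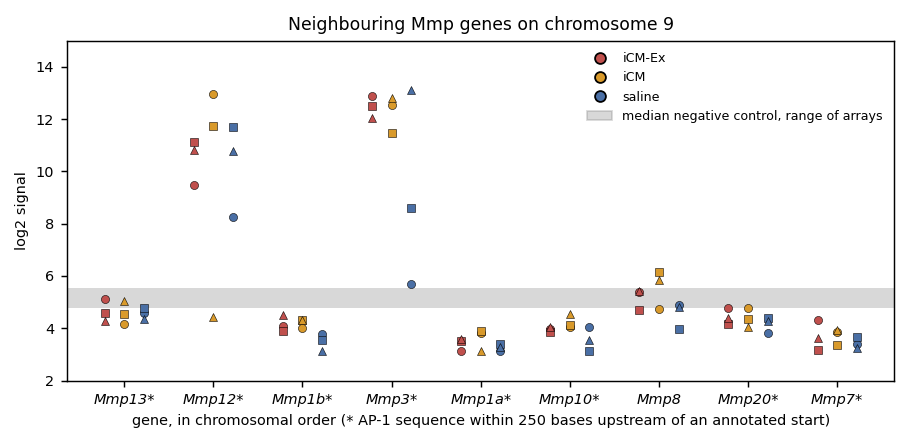
Log2 signal (vertical axis) of the 9 measured Mmp genes of the chromosome 9 run, in chromosomal order. Each symbol is 1 array (circle, square and triangle for replicates 1, 2 and 3), coloured by group with iCM-Ex left, iCM in the middle and saline right, and an asterisk marks genes with the AP-1 motif. Mmp3 and Mmp12 stand above the negative controls on nearly all arrays, with saline replicate 1 of Mmp3 at 5.68 and iCM replicate 3 of Mmp12 at 4.43 as the low points.

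Several arrays differed from the rest in ways that touch the results. Control separation, the median positive minus the median negative control signal, was 3.77 ± 0.21 in iCM-Ex, 2.94 ± 0.41 in iCM and 3.44 ± 0.15 in saline (SD, n = 3 each), and no pair of groups overlapped (exact permutation test, two-sided, p = 0.1 for each pair, the smallest that 3 against 3 arrays allow). All 7 lung alveolar markers were above the negative controls in iCM replicate 1 (mean 12.89) and 6 of 7 in iCM-Ex replicate 3 (mean 9.33), against means of 4.23 to 6.23 elsewhere. All 7 fast skeletal muscle markers (mean 13.19, against 4.72 to 5.88 elsewhere) and 6 of 7 adipocyte markers (mean 8.77, against 4.23 to 5.61) were above them in iCM replicate 2. The heart's own markers were present on every array, since all 8 cardiomyocyte markers (means 16.50 to 18.22) and all 9 measured fibroblast markers (means 12.62 to 15.66) were above the negative controls on each. The mean of the 5 measured macrophage markers was 11.81, 12.06 and 11.90 in iCM-Ex, 9.77, 10.38 and 8.73 in iCM, and 8.50, 10.25 and 11.94 in saline. In saline replicate 1 all 5 measured neutrophil markers were below the controls. Fewer cells of a type and less RNA per cell cannot be told apart in such bulk tissue.

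No gene of the 52 passed an adjusted p of 0.05 by limma in any comparison. For iCM minus saline, 0 of the 52 passed, where 3.67% of all genes did (1.34% higher and 2.33% lower), and 10 of the 52 (19.2%) had an unadjusted p under 0.05, where 20.5% of all genes did. For iCM-Ex minus saline 0 passed (0.349% of all genes, 0.22% higher and 0.128% lower), and 5 (9.62%) had an unadjusted p under 0.05 (15.2% of all genes). For iCM-Ex minus iCM 0 passed (1.07% of all genes, 0.795% higher and 0.272% lower), and again 5 (9.62%) had an unadjusted p under 0.05 (14.5% of all genes). The F test over the 3 groups in limma called 0 of the 52 (3.32% of all genes), and 7 of them (13.5%) had an unadjusted F test p under 0.05 (21.8% of all genes). Across the changes in processing that were tried, the count of the 52 past the threshold ranged from 0 to 4 for iCM minus saline, from 0 to 2 for each of the others and from 0 to 5 for the F test. The upper end was reached with limma's array weights, which gave saline replicate 1 a weight of 0.38 and saline replicate 2 one of 2.81. Counts over all 19505 genes rose with these weights too. They went from 716 to 1500 for iCM minus saline and from 68 to 1187 for iCM-Ex minus saline. For iCM-Ex minus iCM they went from 208 to 559, and for the F test from 647 to 2108.

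The intervals were wide. Over the 52 genes the median half-width of the 95% moderated interval of a difference was 1.05 on the log2 scale, and over the 28 genes above background in all 3 groups it was 1.37, with a range of 0.58 to 4.06. These 28 are the genes on which most of the account below rests. Another 4 (Adamts14, Adamts4, Mmp8 and Timp4) were above background in 2 groups, and 20 were above it in none.

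The differences of the 52 genes lay on both sides of 0. The median log2 difference of the 52 was -0.13 for iCM minus saline (all genes 0.08), 0.08 for iCM-Ex minus saline (all genes 0.04) and -0.05 for iCM-Ex minus iCM (all genes -0.04). Of the 52, 25, 28 and 24 had a mean difference above 0 in these comparisons in turn, which is 48.1%, 53.8% and 46.2%, where 55.5%, 53.5% and 46.1% of all genes did. Among the 28 genes above background in all groups, 20 of 28 were lower in iCM than in saline, with a median of -0.53, where 5357 of the 9860 genes of the array that were above background in all groups were lower, with a median of -0.08. Of the same 28, 14 were lower in iCM-Ex than in saline (median -0.04, against -0.03 for the 9860 genes) and 13 were lower in iCM-Ex than in iCM (median 0.33, against 0.06). The comparisons share arrays, so these medians are not independent of each other.

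Complete separation of the 3 arrays of one group from the 3 of another was not more frequent among the 52 than among all genes. In iCM against saline 6 genes were separated, all higher in iCM: Timp4, Loxl4, Adamts1, Adamts14, Adamts8 and Mmp1b (11.5%, where 24% of all genes were separated, 13.8% higher and 10.2% lower). In iCM-Ex against saline 7 were separated (13.5%, all genes 21.7%, of which 12.2% higher and 9.53% lower), with Timp2, Loxl1, Loxl4 and Mmp1b higher in iCM-Ex and P4ha2, Adamts6 and Mmp24 lower. In iCM-Ex against iCM 9 were separated (17.3%, all genes 20.2%, of which 10.2% higher and 10% lower), with Timp1, Timp2, Timp3, Loxl1 and P4ha3 higher in iCM-Ex and Loxl4, P4ha2, Adamts3 and Mmp24 lower. Adamts3, Adamts8, Mmp1b and Mmp24 were below the negative controls in every group, so their separation has no clear meaning as expression.

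**Figure D2:**
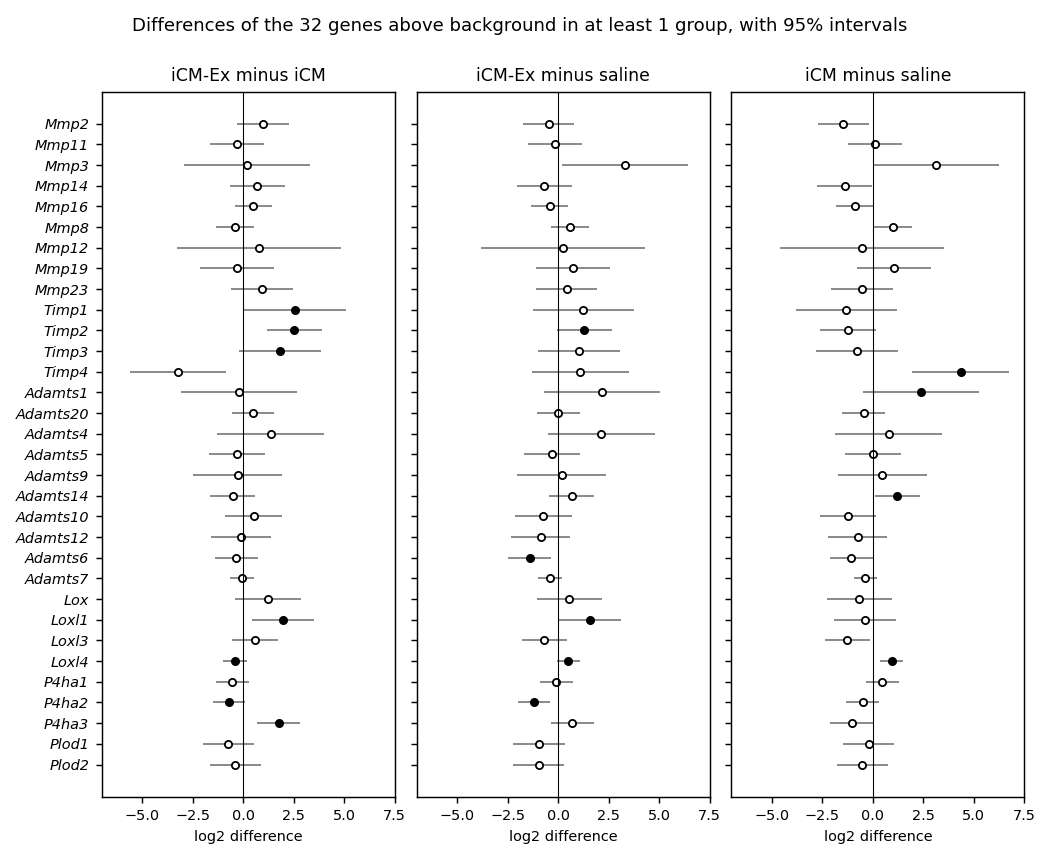
Log2 differences (horizontal axis) of the 32 genes above background in at least 1 group, for iCM-Ex minus iCM, iCM-Ex minus saline and iCM minus saline. Lines are 95% moderated intervals from limma and filled circles mark genes whose 3 arrays in one group did not overlap the 3 in the other. Timp4 lies at 4.34 for iCM minus saline and at -3.23 for iCM-Ex minus iCM, Timp2 lies at 2.53 for iCM-Ex minus iCM, and no gene passed an adjusted p of 0.05.

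The gelatinases cut denatured collagen and basement membranes. Mmp2 (gelatinase A, chromosome 8), which fibroblasts make, had signals of 16.40, 15.44 and 15.14 in iCM-Ex, 15.56, 14.58 and 13.88 in iCM, and 14.97, 16.66 and 16.76 in saline. The groups overlapped, with iCM replicate 3 lowest and saline replicates 2 and 3 highest. Mmp2 averaged 14.67 ± 0.84 in iCM and 16.13 ± 1.0 in saline (SD, n = 3 each), a difference of -1.46 ± 0.58 (SE, 95% interval -2.74 to -0.18, limma adjusted p = 0.186), which passed with array weights (-1.91, adjusted p = 0.0411). The mean of the fibroblast markers was 14.93, 13.73 and 12.62 in iCM and 13.91, 15.66 and 15.12 in saline, and its part in the result was not tested. The iCM-Ex mean of Mmp2, 15.66 ± 0.66, gave a difference from saline of -0.47 (interval -1.75 to 0.81, adjusted p = 0.762), between -1.05 and -0.15 on leaving out 1 array. Mmp9 (gelatinase B), the enzyme that neutrophils and macrophages release early after infarction, was at background, with 3.96, 3.94 and 4.24 in iCM-Ex, 4.81, 4.52 and 3.75 in iCM, and 3.52, 6.09 and 4.05 in saline. Saline replicate 2 alone exceeded its negative controls, and the sign of both differences from saline turned when it was left out.

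Mmp14, the membrane-bound protease that activates the Mmp2 precursor at the cell surface together with Timp2, had signals of 8.18, 7.63 and 7.84 in iCM-Ex, 7.01, 7.90 and 6.64 in iCM, and 7.35, 10.12 and 8.25 in saline. All groups overlapped, and saline replicate 2 was the high array. Its iCM minus saline difference was -1.39 ± 0.61 (SE, 95% interval -2.76 to -0.03, limma adjusted p = 0.234). It was -0.62 without saline replicate 2 (adjusted p = 0.521) and -2.27 with array weights (0.0476), the setting in which it passed. Of the other measured membrane-type genes, Mmp16 was above background in all groups (5.49 to 7.65 over the 9 arrays) and Mmp17, Mmp24 and Mmp25 were in none.

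Mmp3 and Mmp12 were the proteases with the widest spread between arrays, and they are described here because of values already seen. Mmp3 (stromelysin-1), which cuts proteoglycans and activates other MMP precursors, had signals of 12.87, 12.51 and 12.03 in iCM-Ex, 12.55, 11.47 and 12.82 in iCM, and 5.68, 8.61 and 13.13 in saline. The 6 treated arrays lay within a narrow band, while the saline arrays ran from the background level to the highest of all 9. The difference from saline was 3.33 ± 1.41 for iCM-Ex (95% interval 0.21 to 6.46, limma adjusted p = 0.295) and 3.14 ± 1.41 for iCM (0.01 to 6.27, adjusted p = 0.242). Without saline replicate 3 it was 5.33 for iCM-Ex (adjusted p = 0.0224) and 5.14 for iCM (adjusted p = 0.0162), the only setting that called Mmp3, and over all settings the adjusted p ranged from 0.0224 to 0.588 and from 0.0162 to 0.600. Without saline replicate 1 it was 1.60 for iCM-Ex (adjusted p = 0.558) and 1.41 for iCM (0.490). In saline the macrophage marker means ran in the same order as Mmp3 over the replicates (8.50, 10.25 and 11.94). In iCM they ran in the reverse order (9.77, 10.38 and 8.73), and in iCM-Ex in neither order (11.81, 12.06 and 11.90). Their part in the result was not tested.

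Mmp12 (macrophage elastase) had signals of 9.48, 11.13 and 10.82 in iCM-Ex, 12.97, 11.74 and 4.43 in iCM, and 8.27, 11.69 and 10.78 in saline. One array, iCM replicate 3, was at background, and the same array had the lowest macrophage marker mean of its group, 8.73 against 9.77 and 10.38. Saline replicate 1 had a lower macrophage marker mean, 8.50, with Mmp12 at 8.27, above background. In iCM replicate 1, the array with the highest lung alveolar marker mean, Mmp12 was highest of all 9. In iCM-Ex replicate 3, which also carried lung markers, Mmp12 was 10.82, inside the range of its group. The part of these markers in the result was not tested. Among the remaining MMPs above background, Mmp19 (5.35 to 9.61 over the 9 arrays), Mmp23 (7.94 to 11.08) and Mmp11 (stromelysin-3, 5.48 to 7.64) overlapped between all pairs of groups.

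In 3 of the 4 TIMPs the iCM-Ex and iCM hearts were separated. Timp1, Timp2 and Timp3 were higher on each iCM-Ex array than on any iCM array, while the mean of Timp4 was lower in iCM-Ex. None of these differences passed the threshold. Timp2 (chromosome 11), which both inhibits MMPs and takes part in Mmp2 activation, had signals of 15.38, 15.20 and 15.68 in iCM-Ex, 14.04, 11.88 and 12.76 in iCM, and 12.89, 14.41 and 15.09 in saline. Every iCM-Ex array exceeded every array of both other groups, and iCM and saline overlapped. Timp2 averaged 15.42 ± 0.25 in iCM-Ex and 12.89 ± 1.08 in iCM (SD, n = 3 each), a difference of 2.53 ± 0.62 (SE, 95% interval 1.16 to 3.89, limma adjusted p = 0.0851). It passed with array weights (adjusted p = 0.0291), on leaving out iCM replicate 1 (0.0396) and on leaving out saline replicate 1 (0.0482), and over all settings the adjusted p ran from 0.0291 to 0.930, the highest with control separation as a covariate. Against saline the iCM-Ex difference of Timp2 was 1.29 ± 0.62 (interval -0.08 to 2.66, adjusted p = 0.355), or 0.67 without saline replicate 1 (0.651).

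Timp1, the inducible secreted inhibitor on the X chromosome, had signals of 13.70, 12.49 and 12.14 in iCM-Ex, 10.93, 10.34 and 9.35 in iCM, and 8.61, 11.66 and 14.30 in saline. Timp3, which binds to the matrix and also inhibits ADAMTS proteases, had 12.47, 11.78 and 11.45 in iCM-Ex, 11.05, 9.67 and 9.54 in iCM, and 8.74, 10.69 and 13.21 in saline. Both genes had no overlap between iCM-Ex and iCM, whereas the saline arrays spanned the whole range of the treated ones. The iCM-Ex minus iCM difference was 2.57 ± 1.13 for Timp1 (SE, 95% interval 0.05 to 5.08, limma adjusted p = 0.334). For Timp3 it was 1.81 ± 0.91 (interval -0.22 to 3.84, adjusted p = 0.412). The macrophage marker means and control separation were likewise higher on every iCM-Ex array than on any iCM array, and the part of the macrophage markers in the TIMP differences was not tested. With control separation as a covariate the iCM-Ex minus iCM difference was 1.40 for Timp1, 0.73 for Timp2 and 0.19 for Timp3 (limma adjusted p = 0.940, 0.930 and 0.990). Because control separation did not overlap between these groups, that fit cannot tell its part from that of the treatment. For iCM-Ex minus iCM it called 0 of all genes.

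Timp4 (chromosome 6), known for its high expression in heart muscle relative to most other organs, had signals of 6.30, 5.51 and 5.80 in iCM-Ex, 6.0, 10.41 and 10.89 in iCM, and 3.78, 4.73 and 5.77 in saline. It was at or near background in iCM-Ex and saline and in iCM replicate 1, and far above it on the other 2 iCM arrays. Timp4 averaged 9.10 ± 2.69 in iCM and 4.76 ± 1.0 in saline (SD, n = 3 each), a difference of 4.34 ± 1.07 (SE, 95% interval 1.96 to 6.72, limma adjusted p = 0.0542). No gene of the 52 had a lower adjusted p in the comparisons as fitted. Its saline mean lay below the negative controls, so the size of the difference is uncertain. The iCM-Ex minus iCM difference of Timp4 was -3.23 ± 1.07 (interval -5.61 to -0.85, adjusted p = 0.185).

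The Timp4 difference from saline depended on the setting. It passed the threshold when only the 9752 genes above the median signal were tested (adjusted p = 0.0313), with limma-trend (0.0393), with array weights (0.0208) and without iCM replicate 1 (difference 5.89, adjusted p = 0.0035), and over 17 settings the difference ranged from 3.38 to 6.13 and the adjusted p up to 0.408. The 2 iCM arrays with high Timp4 differed in their other markers. In iCM replicate 2 the means were 13.19 for fast skeletal muscle, 8.77 for adipocyte and 16.50 for cardiomyocyte markers. In iCM replicate 3 they were 5.41, 4.78 and 18.22. Their part in the Timp4 signal was not tested. Timp4 overlaps Syn2 in the RefSeq table, as Timp1 does Syn1 and Timp3 does Syn3, so an array probe set could in principle read either of a pair. The Syn2 signal was 5.39, 5.57 and 5.78 in iCM-Ex, 4.95, 5.49 and 4.72 in iCM, and 6.44, 5.42 and 5.44 in saline. Which gene of a pair a probe set reads was not tested.

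**Figure D3:**
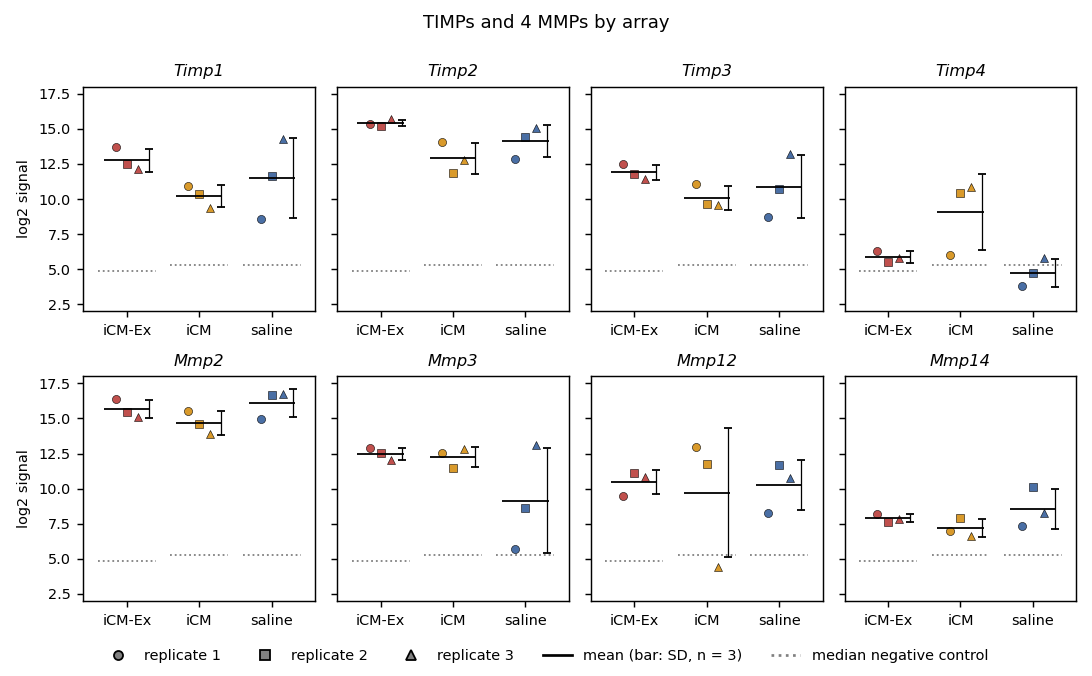
Log2 signal (vertical axis) of the 4 TIMPs and of Mmp2, Mmp3, Mmp12 and Mmp14 on each array, with iCM-Ex, iCM and saline from left to right. Symbols are arrays (circle, square and triangle for replicates 1, 2 and 3), horizontal lines group means, bars the SD of 3 arrays and dotted lines the mean of the median negative control of the group. Timp1, Timp2 and Timp3 do not overlap between iCM-Ex and iCM, Timp4 is high on 2 iCM arrays (10.41 and 10.89), and saline spreads widely for Timp1 and Mmp3.

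Of the ADAMTS proteoglycanases, which cut versican and aggrecan, Adamts1 (chromosome 16) had signals of 13.77, 8.36 and 7.96 in iCM-Ex, 9.46, 11.52 and 9.77 in iCM, and 6.90, 8.45 and 8.27 in saline. All 3 iCM arrays exceeded all 3 saline arrays, and iCM-Ex held both the highest array of all and values within the saline range. The iCM minus saline difference was 2.38 ± 1.29 (SE, 95% interval -0.50 to 5.25, limma adjusted p = 0.331) and the iCM-Ex minus saline difference 2.16 ± 1.29 (interval -0.72 to 5.04, adjusted p = 0.471). The iCM-Ex difference was 0.29 without iCM-Ex replicate 1.

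That iCM-Ex replicate 1 was also the highest array for Adamts4 and shared the top for Adamts9, which are named here after their values were seen. Adamts4 (aggrecanase-1) had 10.34, 5.03 and 5.0 in iCM-Ex, 4.94, 5.99 and 5.35 in iCM, and 3.69, 5.33 and 4.94 in saline. Adamts9 had 10.33, 6.99 and 7.03 in iCM-Ex, 6.65, 10.34 and 8.17 in iCM, and 7.79, 8.15 and 7.84 in saline. For Adamts4 a single array thus stood apart from the other 8, and its iCM-Ex minus saline difference was 2.14 ± 1.19 (95% interval -0.51 to 4.78, limma adjusted p = 0.433), or 0.36 without iCM-Ex replicate 1. The same array was high for Nr4a1, an immediate early gene encoding a nuclear receptor (14.45, 6.73 and 6.61 in iCM-Ex, 5.68, 6.86 and 6.95 in iCM, and 5.37, 6.72 and 5.89 in saline), also chosen after its values were seen. Its part in the result was not tested. Adamts5 (aggrecanase-2), the chromosomal neighbour of Adamts1, was not high on that array (8.57, 8.94 and 8.56 in iCM-Ex).

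Among the other ADAMTS genes, Adamts6, which acts on fibrillin microfibrils, was lower in iCM-Ex, with 6.80, 6.95 and 5.91 in iCM-Ex, 6.89, 6.12 and 7.67 in iCM, and 7.25, 8.16 and 8.48 in saline. No iCM-Ex array reached the lowest saline array. The difference was -1.41 ± 0.47 (SE, 95% interval -2.46 to -0.36, limma adjusted p = 0.200), and over the settings its adjusted p ran from 0.0375, with array weights, to 0.526. Adamts14, which removes the N-propeptide of fibrillar procollagens, had 6.37, 4.70 and 5.80 in iCM-Ex, 6.90, 5.58 and 5.98 in iCM, and 5.46, 5.10 and 4.30 in saline, close to background. Its iCM minus saline difference was 1.20 ± 0.50 (interval 0.09 to 2.32, adjusted p = 0.209). Adamts10 (7.92 to 10.82 over the 9 arrays), Adamts12 (5.76 to 8.45), Adamts7 (5.29 to 6.09), Adamts5 (7.36 to 10.04) and Adamts20 (5.76 to 7.54) were above background in all groups and overlapped between all pairs of groups. Another 8 ADAMTS genes (Adamts3, Adamts8, Adamts13, Adamts15, Adamts16, Adamts17, Adamts18 and Adamts19) were above background in none.

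**Figure D4:**
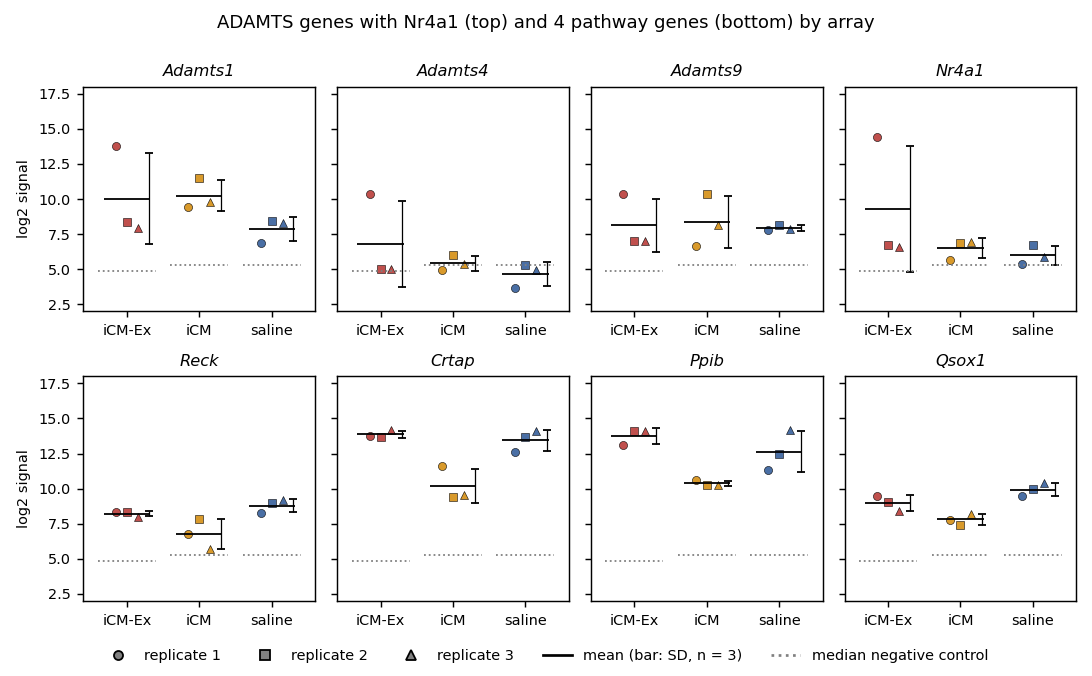
Log2 signal (vertical axis) by array for Adamts1, Adamts4, Adamts9 and Nr4a1 (top) and for Reck, Crtap, Ppib and Qsox1 (bottom), with iCM-Ex, iCM and saline from left to right. Symbols are arrays (circle, square and triangle for replicates 1, 2 and 3), horizontal lines group means, bars the SD of 3 arrays and dotted lines the mean of the median negative control of the group. In the top row iCM-Ex replicate 1 stands apart from its group, at 13.77 for Adamts1 and 14.45 for Nr4a1, and in the bottom row the 3 iCM arrays of Crtap and Ppib lie below all others.

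The 4 measured lysyl oxidases were above background in every group, with Loxl4 closest to it. Lox, the family's founding member, had signals of 12.76, 10.73 and 11.02 in iCM-Ex, 10.55, 10.81 and 9.45 in iCM, and 9.41, 11.28 and 12.15 in saline. The groups overlapped, and the iCM-Ex minus iCM difference was 1.23 ± 0.73 (SE, 95% interval -0.38 to 2.85, limma adjusted p = 0.496), or 0.61 without iCM-Ex replicate 1 (0.791). Loxl1 (chromosome 9), needed for elastic fibre upkeep, had 12.99, 12.40 and 12.30 in iCM-Ex, 12.10, 9.95 and 9.73 in iCM, and 9.65, 11.71 and 11.63 in saline. Every iCM-Ex array exceeded every other array. The difference from iCM was 1.97 ± 0.69 (interval 0.45 to 3.49, adjusted p = 0.203) and that from saline 1.57 ± 0.69 (interval 0.05 to 3.09, adjusted p = 0.313), the one from saline being 0.90 without saline replicate 1 (0.585).

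Loxl4 (chromosome 19) was the gene whose 3 groups were all separated. It had signals of 6.40, 6.35 and 6.21 in iCM-Ex, 6.83, 6.97 and 6.41 in iCM, and 5.69, 5.76 and 5.99 in saline. Every iCM array was above every iCM-Ex array, by the narrowest of margins, and every iCM-Ex array above every saline array. The iCM minus saline difference was 0.92 ± 0.26 (SE, 95% interval 0.34 to 1.5, limma adjusted p = 0.0799) and passed the threshold in none of the 17 settings (adjusted p from 0.0509 to 0.588). The iCM-Ex minus saline difference was 0.51 ± 0.26 (interval -0.07 to 1.08, adjusted p = 0.394). Loxl3 went the other way in iCM, with 12.45, 12.11 and 11.22 in iCM-Ex, 12.27, 11.47 and 10.29 in iCM, and 12.18, 12.78 and 12.88 in saline, and iCM replicate 1 within the saline range. Its iCM minus saline difference was -1.27 ± 0.50 (interval -2.39 to -0.15, adjusted p = 0.187), or -0.74 without iCM replicate 3 (0.412). Loxl2 was not analysed here.

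The prolyl 4-hydroxylase subunits did not move together. P4ha1, the main subunit in most cells, had 12.21, 11.77 and 11.56 in iCM-Ex, 12.81, 12.06 and 12.34 in iCM, and 11.26, 12.49 and 12.06 in saline, and iCM minus saline gave 0.46 ± 0.37 (SE, 95% interval -0.35 to 1.28, limma adjusted p = 0.516), or 0.13 without saline replicate 1 (0.865). P4ha2 (chromosome 11) had 8.21, 8.02 and 7.98 in iCM-Ex, 8.69, 9.16 and 8.47 in iCM, and 8.93, 10.06 and 8.86 in saline. Its iCM-Ex arrays were below all 6 others. The difference from saline was -1.21 ± 0.36 (interval -2.01 to -0.41, adjusted p = 0.157, 0.0226 with array weights, up to 0.484 elsewhere) and that from iCM -0.70 ± 0.36 (interval -1.5 to 0.10, adjusted p = 0.422).

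P4ha3 (chromosome 7) showed the opposite order between the treated groups, with 7.89, 7.57 and 8.15 in iCM-Ex, 6.41, 5.94 and 5.98 in iCM, and 5.89, 7.67 and 7.92 in saline. The iCM-Ex and iCM arrays did not overlap, and saline replicate 1 lay with iCM while saline replicates 2 and 3 lay with iCM-Ex. The iCM-Ex minus iCM difference was 1.76 ± 0.48 (SE, 95% interval 0.69 to 2.83, limma adjusted p = 0.113), and it passed without saline replicate 1 (0.0331) and with array weights (0.0418), with a range up to 0.879. The iCM minus saline difference of -1.05 ± 0.48 (interval -2.12 to 0.02, adjusted p = 0.252) became -1.68 without saline replicate 1 (adjusted p = 0.0313) and -0.67 without saline replicate 3 (0.511), and with array weights it was -1.47 (0.0441).

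The lysyl hydroxylases overlapped in every comparison. Plod1 had 11.50, 10.47 and 9.61 in iCM-Ex, 12.07, 10.03 and 11.70 in iCM, and 11.26, 11.64 and 11.54 in saline. Plod2, which acts on the telopeptide lysines that give the more stable crosslinks, had 11.90, 10.14 and 9.75 in iCM-Ex, 11.05, 11.63 and 10.33 in iCM, and 11.31, 12.21 and 11.10 in saline. For both, iCM-Ex replicates 2 and 3 lay below the saline arrays and iCM-Ex replicate 1 within their range. The iCM-Ex minus saline difference was -0.95 ± 0.57 for each, to 2 decimals (SE, 95% intervals -2.23 to 0.32 for Plod1 and -2.21 to 0.32 for Plod2, limma adjusted p = 0.472 and 0.473). Without iCM-Ex replicate 3 it was -0.50 for Plod1 and -0.52 for Plod2, and without iCM-Ex replicate 1 it was -1.44 and -1.60.

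**Figure D5:**
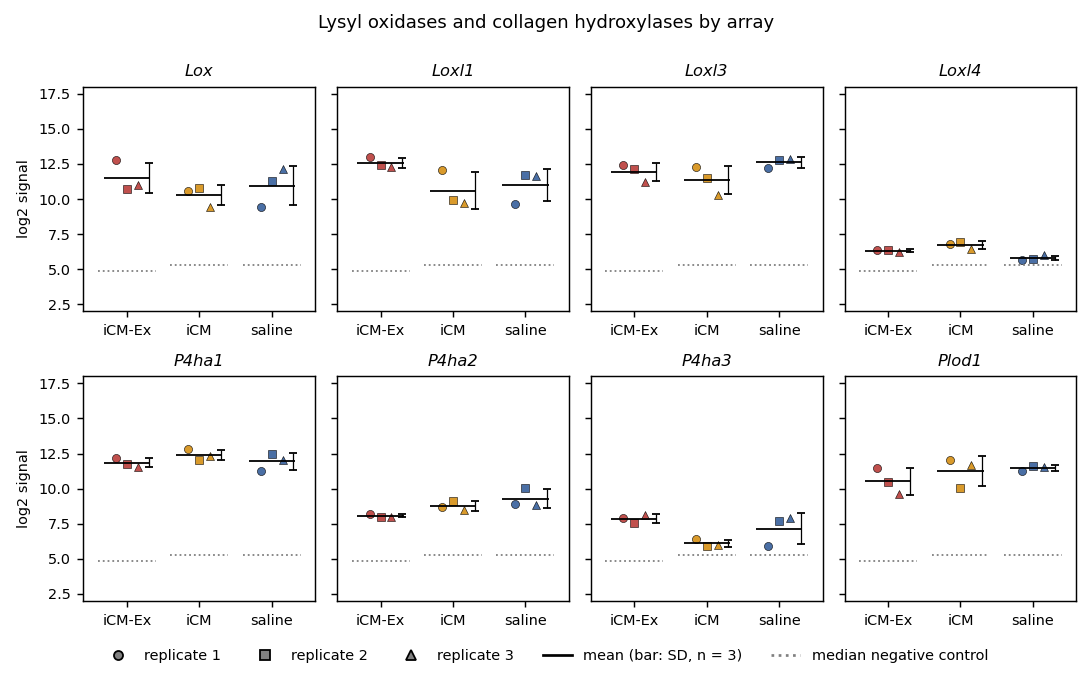
Log2 signal (vertical axis) by array for the lysyl oxidases Lox, Loxl1, Loxl3 and Loxl4, the prolyl 4-hydroxylase subunits P4ha1, P4ha2 and P4ha3 and the lysyl hydroxylase Plod1, with iCM-Ex, iCM and saline from left to right. Symbols are arrays (circle, square and triangle for replicates 1, 2 and 3), horizontal lines group means, bars the SD of 3 arrays and dotted lines the mean of the median negative control of the group. Loxl1 and P4ha2 show iCM-Ex apart from both other groups, on opposite sides, while the 3 groups of Loxl4 are stacked within 5.69 to 6.97.

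Saline replicate 1 was often the lowest array for these genes. It was the lowest of its group for 24 of the 28 genes above background and the lowest of all 9 arrays for 12 of them, whereas saline replicate 3 was the highest of all 9 for 9. Among the treated arrays, iCM-Ex replicate 1 was the highest of its group for 19 of the 28, iCM replicate 1 for 17, while iCM-Ex replicate 3 was the lowest of its group for 15 and iCM replicate 3 for 14. Over these 28 genes saline replicate 1 had a median signal of 8.03, against 10.09 and 10.41 for saline replicates 2 and 3. Over all gene rows it also had the lowest median of the 9 arrays, 5.35, against 5.51 for each of saline replicates 2 and 3. The same ranks were not counted over all genes, so whether these genes differ from others in this way was not tested.

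Genes that act beside these enzymes did include some that passed the threshold. Of 60 listed (the plasminogen system, other matrix-degrading proteases, further protease activators and inhibitors, procollagen processing and folding, and other crosslinking enzymes) 55 were measured. For iCM minus saline 3 of the 55 fell (5.45%, where 2.33% of all genes fell) and 0 rose. For iCM-Ex minus saline 0 of 55 passed in either direction by limma. For iCM-Ex minus iCM 2 rose (3.64%, where 0.795% of all genes rose) and 0 fell. The lists were chosen with earlier results of these data known. These shares therefore cannot show that such genes changed more often than others. The share of rises among all calls depended on scaling, with 262 of 716 calls higher for iCM minus saline and 155 of 208 for iCM-Ex minus iCM, against 418 of 860 and 159 of 299 after quantile normalisation.

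Crtap, the cartilage-associated protein that forms an endoplasmic reticulum complex with the prolyl 3-hydroxylase P3h1 and the cyclophilin Ppib to modify and fold procollagen, had 13.73, 13.71 and 14.18 in iCM-Ex, 11.60, 9.39 and 9.56 in iCM, and 12.63, 13.68 and 14.08 in saline. All iCM arrays lay below all others. Crtap was 3.69 ± 0.57 higher in iCM-Ex than in iCM (SE, 95% interval 2.41 to 4.97, limma adjusted p = 0.0275), and in iCM it fell by 3.28 ± 0.57 relative to saline (interval of the difference -4.56 to -2.00, adjusted p = 0.0173). The first call was lost without iCM replicate 2 (0.0921), iCM replicate 3 (0.0769), iCM-Ex replicate 2 (0.123), iCM-Ex replicate 3 (0.160) or saline replicate 2 (0.0621), and the second without iCM replicate 2 (0.0669) or saline replicate 2 (0.0781).

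Ppib had 13.10, 14.09 and 14.12 in iCM-Ex, 10.61, 10.27 and 10.29 in iCM, and 11.31, 12.44 and 14.19 in saline, so that the iCM arrays again lay below all others. It was 3.38 ± 0.61 higher in iCM-Ex than in iCM (SE, 95% interval 2.02 to 4.74, limma adjusted p = 0.0386). That call was lost without iCM replicate 2 (0.127), iCM replicate 3 (0.0918), iCM-Ex replicate 2 (0.170), iCM-Ex replicate 3 (0.205) or saline replicate 2 (0.0742). P3h1, the third partner, was near background on all arrays (4.33 to 5.48).

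Reck, a membrane-anchored inhibitor of MMPs, had 8.32, 8.32 and 7.99 in iCM-Ex, 6.75, 7.83 and 5.68 in iCM, and 8.29, 8.95 and 9.16 in saline. It fell by 2.05 ± 0.48 in iCM relative to saline (SE, 95% interval of the difference -3.12 to -0.97, limma adjusted p = 0.0467), a call that was lost on leaving out any of 8 of the 9 arrays (adjusted p up to 0.142, without saline replicate 2) and with limma-trend (0.0512), and kept without iCM replicate 2 (0.0271). Qsox1, a secreted sulfhydryl oxidase that forms disulfide bonds in matrix proteins, had 9.51, 9.06 and 8.41 in iCM-Ex, 7.78, 7.44 and 8.20 in iCM, and 9.46, 9.94 and 10.40 in saline, and fell by 2.13 ± 0.37 in iCM relative to saline (interval of the difference -2.96 to -1.30, adjusted p = 0.0173). The Qsox1 call was lost without iCM replicate 2 (0.0676) or saline replicate 2 (0.0742). Neither gene overlapped between iCM and saline.

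All 5 calls on these pathway genes were lost on leaving out the 3 arrays that carried markers of lung, skeletal muscle or fat, which leaves 1 iCM array, and when control separation was a covariate. On leaving out the 3 arrays the iCM minus saline differences were -3.12 for Reck, -3.90 for Crtap and -1.73 for Qsox1, and the iCM-Ex minus iCM differences 4.16 for Crtap and 3.31 for Ppib. With the covariate they were -2.63, -2.44 and -1.72 for the same 3 genes in turn, and 2.28 for Crtap and 2.26 for Ppib. The signs were those of the fit on all 9 arrays. As with the TIMPs, iCM arrays had the lowest control separation. No pair of groups overlapped in control separation, so the covariate fit cannot tell its part in these calls from that of the treatment. For iCM-Ex minus saline the 3 pathway genes with the smallest p were Adam9 (difference -1.29, limma adjusted p = 0.119), Mcpt4, a mast cell protease (1.67, 0.148), and Adam19 (-0.80, 0.240), none past the threshold, and of these Adam9 passed with array weights (0.0185).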

How the data were processed

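RNA of 9 peri-infarct samples was measured on Clariom S arrays, 3 per group. The authors deposited log2 signals, 1 for each probe set and array, from Affymetrix Expression Console according to the submitters' processing notes. Its version and settings are not stated there, and that the scale is log2 was taken from the range of the values (2.25 to 19.93). Of 28846 rows, 6640 were controls, used only for background and control separation, and 2634 gene rows had no symbol. The brightest row was kept for each of the 19505 genes, and each of the 52 genes had 1 row. Adamts2, Loxl2, Mmp15, Mmp27 and Plod3, and some genes of the pathway and marker lists, were not analysed here.

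One limma fit (limma 3.58.1, R 4.3.3; prior degrees of freedom 4.23, residual 6) over all genes and arrays gave the 3 contrasts and an F test, two-sided, adjusted by Benjamini-Hochberg, with a threshold of 0.05. It was also run on simulated data, which cannot show how it behaves on these arrays. The number of arrays limits the precision. The genes, lists and tests were chosen with earlier results of these data known. Values per array are given for genes that separated 2 groups above background (up to 4 per direction and contrast), the 5 brightest and those with known roles in infarct healing; others are named as chosen after their values were seen. Pathway genes are named if past the threshold, else the 3 with the smallest p.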

Additional observations from a re-analysis of the deposited data

How the results depend on the processing

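The comparisons were refitted under 17 other settings, 9 of them leaving out 1 array each, and the settings for the pathway genes were added after seeing the data. Of the 52 genes, the count past the threshold for iCM minus saline became 1 with only genes above the median signal, 1 with limma-trend and 4 with array weights. With array weights it became 2 for iCM-Ex minus saline, 2 for iCM-Ex minus iCM and 5 for the F test. Of all 19505 genes, array weights called 1187, 559 and 2108 in these comparisons in turn, and 1500 for iCM minus saline. On leaving out 1 array each in turn the count of the 52 ranged from 0 to 1 for iCM minus saline and for iCM-Ex minus saline. It ranged from 0 to 2 for iCM-Ex minus iCM and for the F test. With only genes above the median signal, 28 of the 52 remain. They include Timp4, so they are not the same 28 as those above background in all groups. Their median difference was -0.53 for iCM minus saline (all genes tested -0.09) and 0.33 for iCM-Ex minus iCM (all genes tested 0.08). Leaving out arrays gave medians over the 52 of -0.15 to 0.06 for iCM minus saline, -0.06 to 0.17 for iCM-Ex minus saline and -0.14 to 0.07 for iCM-Ex minus iCM.

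Counts over all genes moved more. For iCM minus saline they were 1500 with array weights, 6 on leaving out together the 3 arrays that carried lung, skeletal muscle or fat markers, 33 with control separation as a covariate and 126 to 803 on leaving out 1 array each. For iCM-Ex minus saline they were 12 with limma-trend, 1187 with array weights, 0 without the 3 arrays, 5 with the covariate and 0 to 163 on leaving out 1 array each. For iCM-Ex minus iCM they were 352 with only genes above the median signal, 118 with limma-trend, 559 with array weights, 0 without the 3 arrays, 0 with the covariate and 0 to 401 on leaving out 1 array each. The cause of these moves was not tested, except that fewer arrays or an added term leave fewer degrees of freedom.

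The replicate numbers share nothing stated in the labels, and deviations of same-numbered arrays correlated at -0.26 to 0.07. With the replicate block, 338, 0 and 18 of all genes passed for iCM against saline, iCM-Ex against saline and iCM-Ex against iCM, and 0 of the 52 did. The block ended the calls on Reck (0.0715), Qsox1 (0.0504), Crtap for iCM-Ex minus iCM (0.0651) and Ppib (0.0608).

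Some differences changed sign. For iCM minus saline, Mmp9 became 0.11 without iCM replicate 3 and 0.57 without saline replicate 2, in a range of -0.71 to 0.57 on leaving out 1 array each. Timp1 became 0.075 without saline replicate 3 (range -2.77 to 0.075), and Timp3 became 0.37 without it (range -1.86 to 0.37) and 0.18 with control separation as a covariate. Plod1 became 0.075 after quantile normalisation, 0.22 without the 3 arrays, 0.71 with the covariate and 0.41 without iCM replicate 2 (range -0.62 to 0.41). For iCM-Ex minus saline, Mmp9 became 0.26 without saline replicate 2 (range -1.03 to 0.26) and Timp1 -0.21 without saline replicate 1 (range -0.21 to 2.64). None of these was past the threshold, and the cause was not tested. Mmp9, Adamts4 and Adamts14 have no value with only genes above the median signal. The signal limits the 20 genes at background. A fall there would not be detectable, and a rise only if it brought the signal above background.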
